A study of Solenopsis invicta with 3 samples.

Results

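The fire ant Solenopsis invicta carries a large family of odorant receptor genes, and 41 of them were expressed in worker antennae while part of their read count could not be assigned to 1 gene with certainty. These 41 receptors were chosen from 473 genes whose IDs begin with SiOR, among 19703 genes in all, by 2 measured values. The first was a mean normalized expected count of at least 10 over the libraries, which 177 receptors reached. The second was a posterior standard deviation of the count of at least 0.3 counting errors in at least 1 library, where the counting error is the square root of the expected count. Both values describe the receptors and support nothing further, because they were used to choose them. The other 136 expressed receptors had few shared reads by the same measure, and 296 receptors lay under the count minimum.

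Insect odorant receptors are membrane proteins of olfactory neurons that open as ion channels when an odour molecule binds. Each tuned receptor works together with a shared co-receptor, which most olfactory neurons carry, and in ants the family is expanded and serves the recognition of nestmates, brood and queens. Many receptors arose by gene duplication and are alike in sequence, so a short read can fit several of them.

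The study asked which antennal genes could serve workers in telling queens apart. Antennae were taken from workers of 3 classes: SB/Sb workers (P_Bb) and SB/SB workers (P_BB) of polygyne colonies, which have several queens, and monogyne SB/SB (M_BB), from colonies with a single queen. SB and Sb are the 2 variants of a supergene on the social chromosome, so that P_Bb and P_BB differ in genotype within the same colonies, while P_BB and M_BB share the genotype and differ in social form. The labels name the same 4 colonies for P_Bb and P_BB and 4 other colonies for M_BB, of which the design text says that RNA of 3 of 4 bioreplicates was mixed, so that social form and colony origin cannot be told apart.

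Each class was therefore 1 pooled library with no replicate, and no p-value is given anywhere. The libraries held 1310209 (P_Bb), 1800106 (P_BB) and 1453234 (M_BB) expected counts. Of the 473 receptors, 431, 439 and 437 had a count above 0 in the same order, beside 13011, 13507 and 13482 of all 19703 genes. A count above 0 can be a fraction of shared reads, and there was no library of another tissue. The antennal label was therefore not tested. No marker of another tissue could be checked, because the gene IDs were not paired with symbols. For the same reason the individual ligands and roles of the 41 receptors are not known from the sources used here, and neither are their chromosomal positions.

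The 41 receptors made up 24.2% (P_Bb), 23.8% (P_BB) and 27.3% (M_BB) of the expected counts of all receptors. A single gene, SiOR1_co, supplied 38.6%, 39.8% and 47.5% of the counts of the 41 in these libraries. In TPM, a level that allows for transcript length and library depth, SiOR1_co stood at 461 (P_Bb), 435 (P_BB) and 626 (M_BB). Its mean TPM of 507 was 4.80-fold that of the next receptor among the 41, SiOR441. The TPM from posterior means, the average over sampled read assignments, was lower, at 260, 284 and 425, and its mean of 323 was 3.57-fold that of SiOR441. SiOR210, a receptor with few shared reads and no assignment uncertainty, was also lower in this form. It stood at 84.6 (P_Bb), 68.2 (P_BB) and 94.1 (M_BB) in the first form and at 70.5, 59.9 and 80.8 in the second. A fall between the 2 forms of TPM therefore does not measure read assignment alone. The first form of SiOR1_co lay above the upper credibility bound deposited with it (379, 396 and 540). No other of the 41 did so, but SiOR473 of the 136 did in each library. The same held for 2281, 1663 and 1971 of the 8393 genes over the count minimum. The suffix of SiOR1_co is not explained in the sources used here, and whether it is the co-receptor is not stated there.

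SiOR441 had a TPM of 90.6 (P_Bb), 112 (P_BB) and 114 (M_BB), and SiOR196 had 78.5, 58.5 and 63.0. SiOR13 stood at 70.1, 44.5 and 59.1 TPM and SiOR55 at 66.2, 49.4 and 32.8. Below these, levels were low and close together, since the mean TPM was under 30 in 35 of the 41 receptors. The median TPM of the 41 was 18.1 (P_Bb), 16.7 (P_BB) and 17.4 (M_BB), beside 19.7, 17.6 and 18.2 in the 136 receptors with few shared reads. Apart from SiOR1_co, the 41 and the 136 thus covered similar levels. Median transcript lengths were also similar, at 1164 bases in the 41 and 1159.5 in the 136. The range was narrower in the 41, at 1056 to 1440 bases beside 762 to 3696 in the 136.

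**Figure D1:**
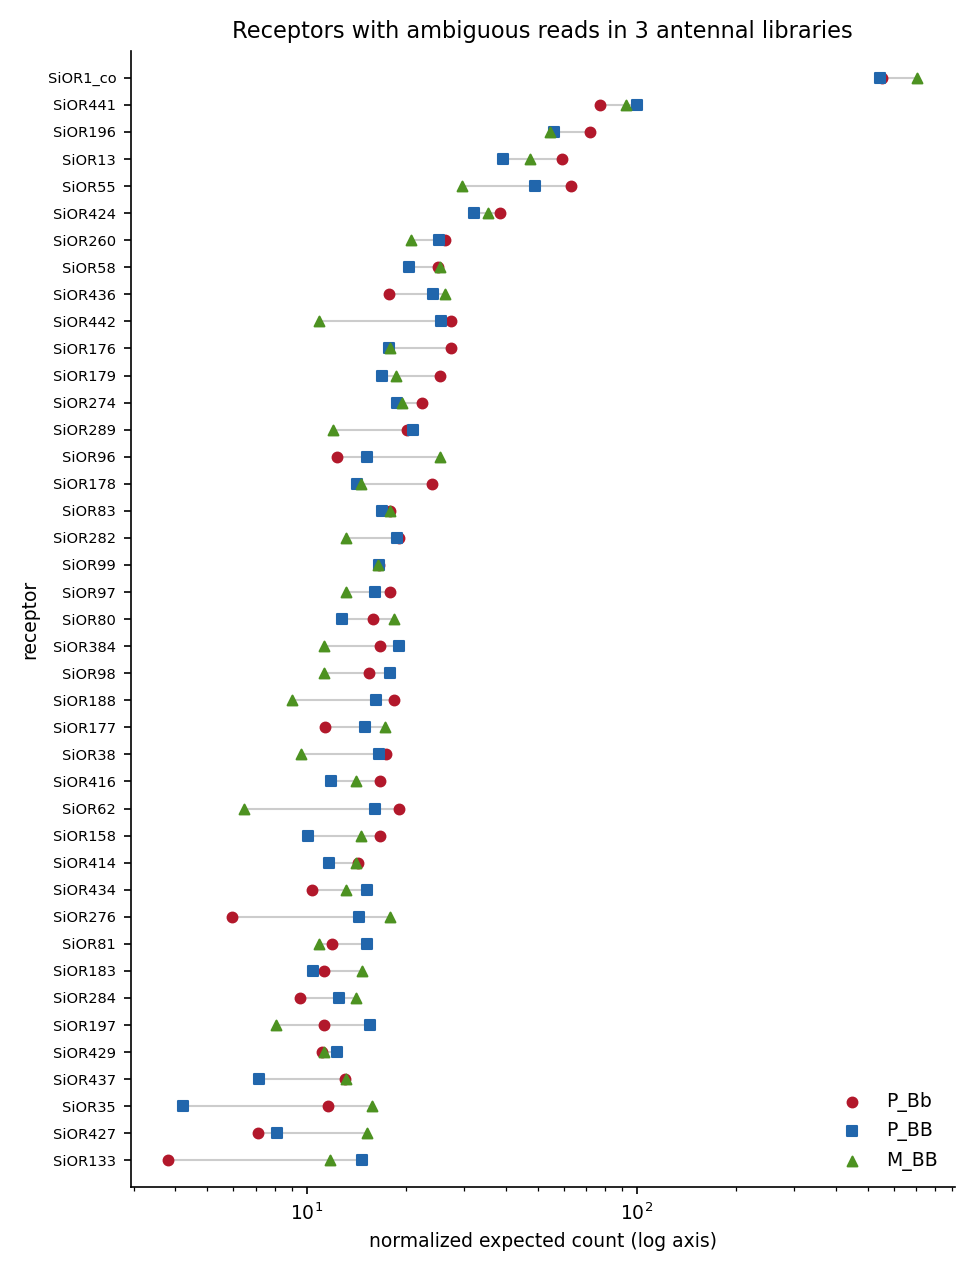
Normalized expected count (log axis) of each of the 41 receptors in the P_Bb, P_BB and M_BB libraries, 1 point per library, with grey lines from the lowest to the highest library. SiOR1_co lies apart at a mean of 600.6, and SiOR441, the next, has a mean of 90.1.

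The median posterior standard deviation of the 41 was 0.358 counting errors in P_Bb, 0.379 in P_BB and 0.372 in M_BB, beside 0.0226, 0.0590 and 0.0245 in the 136 other expressed receptors. This contrast is what the choice set. The threshold of 0.3 was passed in all 3 libraries by 19 receptors, in 2 libraries by 7 and in 1 library by 15. SiOR429 (0.307) and SiOR176 (0.310) were just inside it, and SiOR85 (0.294) and SiOR184 (0.275) just outside. For the count minimum, SiOR133 (mean 10.1) and SiOR427 (mean 10.2) were just inside, and SiOR280 (8.89) and SiOR283 (8.81) just outside. Among all 8393 genes over the count minimum, 265 met the same uncertainty criterion (3.16%), and besides the receptors (23.2%) these were 60 of the 5989 official gene set entries (IDs beginning with SINVm1) and 164 of the 2227 assembled loci (IDs beginning with XLOC, 7.36%).

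**Figure D2:**
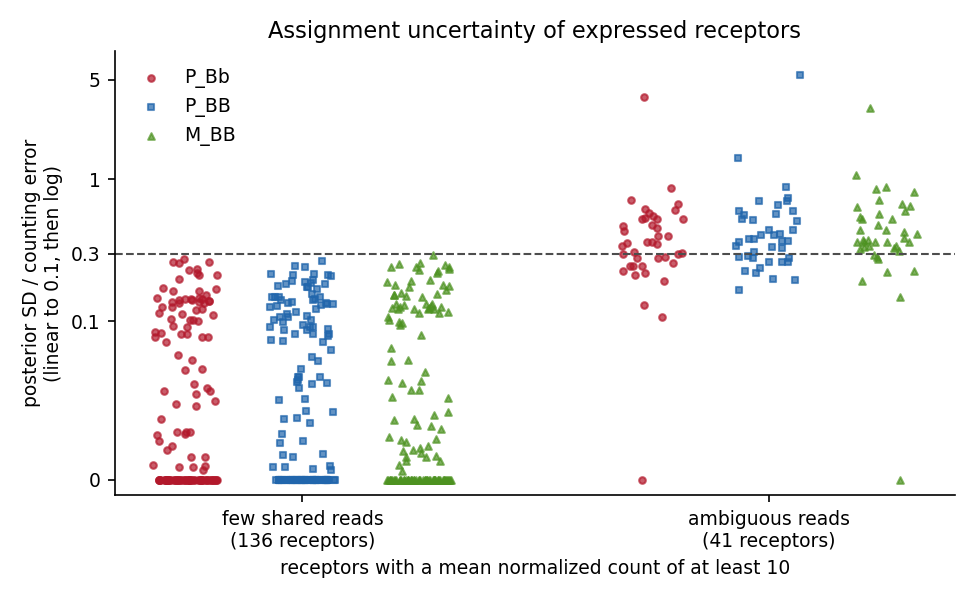
Posterior standard deviation of the count in counting errors (linear to 0.1, then log) for the 136 receptors with few shared reads and the 41 with ambiguous reads, 1 point per receptor and library, with the threshold of 0.3 dashed. SiOR1_co has the highest points, up to 5.41 in P_BB.

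The 2 highest ratios belonged to SiOR1_co, at 3.79 (P_Bb), 5.41 (P_BB) and 3.19 (M_BB), and to SiOR98, at 0.86, 1.42 and 1.07. They were the only receptors among the 41 whose assignment uncertainty exceeded the counting error in any library. SiOR13 and SiOR442 followed, with up to 0.884 and 0.880 counting errors. For the other 39 receptors, counting error was the larger of the 2 sources of error in each library.

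The deposited tables give each count in 2 forms. The expected count is the maximum-likelihood share of reads, and the posterior mean is the average over sampled read assignments. Of the 123 values (41 receptors in 3 libraries), the posterior mean was below the expected count in 110, above it in 9 and equal in 4. The posterior mean was lower in each library for 31 of the 41 receptors, beside 24 of the 136 with few shared reads and 3.48% of all 8393 genes over the minimum. The 41 were chosen on the posterior standard deviation of the same sampling, so nothing is read from this contrast. The posterior mean was higher in each library for 1 receptor, SiOR13.

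Summed over the 41 receptors, the expected count was 1202 (P_Bb), 1525 (P_BB) and 1587 (M_BB), and the posterior mean was 1026, 1330 and 1397. The net difference was -175, -194 and -191 counts. Without SiOR1_co it was -29.1, -44.0 and -39.7, so this 1 gene held most of it. The 136 other expressed receptors, with more counts in all (2578, 3373 and 2833), differed by -8.39, -8.30 and -6.69 counts.

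The difference reached 1 counting error in 2 of the 41 receptors, SiOR1_co and SiOR98, in each of the 3 libraries, and in 0.214% of all genes over the minimum. The measure is tied to the one that chose the receptors, so nothing is read from that contrast. SiOR1_co had 463 (P_Bb), 607 (P_BB) and 753 (M_BB) expected counts and posterior means of 317, 457 and 602, with posterior standard deviations of 81.6, 133 and 87.5. The posterior mean was lower by 31.6%, 24.8% and 20.1% of the expected count. SiOR98 had 13, 20 and 12 expected counts and posterior means of 9.20, 10.4 and 6.19, lower by 29.2%, 48.0% and 48.4%. For both genes the lower value held in P_Bb, P_BB and M_BB alike.

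After these, SiOR83, SiOR55, SiOR276 and SiOR97 fell below their expected counts by the most counting errors. SiOR83 had 15, 18.9 and 19 expected counts and posterior means of 11.5, 18.4 and 15.4, so that its difference was small in P_BB alone. SiOR55 had 53, 55 and 31.5 expected counts and posterior means of 49.4, 49.3 and 28.2. Pooled over the libraries, the posterior mean was lower by 16.6% in SiOR276, 16.1% in SiOR97, 14.4% in SiOR83 and 9.11% in SiOR55. These differences were each under 1 counting error.

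Rises were small. SiOR442 in M_BB had 11.6 expected counts and a posterior mean of 12.3, while in P_Bb and P_BB its posterior mean was the lower value. SiOR13 rose by 0.01, 0.89 and 0.89 counts on 49.9, 44.0 and 50.4 expected counts. SiOR35, SiOR441, SiOR62 and SiOR289 each had their largest rise under 0.1 counting errors. The order of the receptors by this difference in counting errors was alike in the libraries, with Spearman's rho of 0.79 between P_Bb and P_BB, 0.82 between M_BB and P_BB and 0.87 between P_Bb and M_BB over the 40 receptors without SiOR1_co, which share 1 annotation and 1 assignment method.

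In 6 of the 41 receptors, the expected count was a whole number in each library (within 0.005). Their posterior means were lower by a median of 11.3% and by 7.24% to 42.7%, whereas the median over the 35 others was 1.85%. SiOR98 and SiOR97 belong to these 6. An entry given all of its shared reads in the expected count has a whole count and can only be lower in the posterior mean. Nothing is therefore read from the contrast of the 6 with the 35. All 41 were chosen for assignment uncertainty, and of the 136 with few shared reads 39 had whole counts in each library, 23 of them with a posterior standard deviation of 0 throughout.

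The differences between the 2 forms were mirrored elsewhere in the tables. Of the 41 receptors, 24 differed by at least 0.5 counts in some library, and for each of these a gene was sought among all 19703 whose difference was equal and opposite in every library (within 0.05 counts) with the same posterior standard deviation (within 0.1). For 16 receptors exactly 1 such gene was found, for 8 none and for 0 several. The largest mismatch over the 16 pairs was 0.03 counts. All 16 counterparts were official gene set entries, each paired with 1 receptor, and no assembled locus and no other SiOR gene was among them. Among the 136 receptors with few shared reads, 10 differed by that much and 8 of those had a counterpart by the same search. The tables do not record which genes share a read, and the origin of the pairing was not tested.

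**Figure D3:**
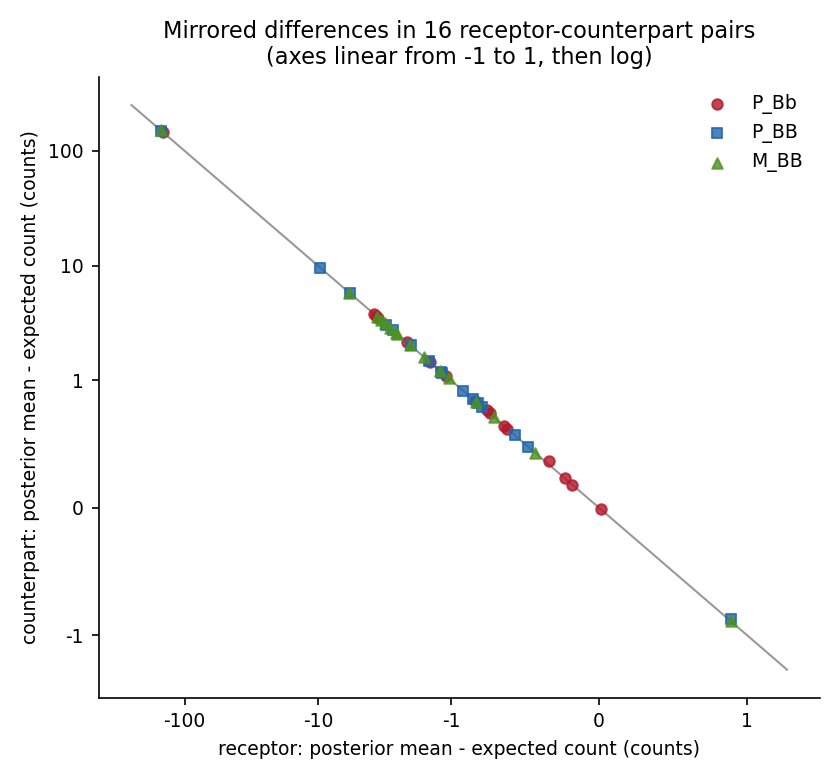
Posterior mean minus expected count of a receptor (horizontal) and of its counterpart (vertical) for 16 pairs in the P_Bb, P_BB and M_BB libraries, in counts, on axes linear from -1 to 1 and logarithmic beyond; the grey line marks equal and opposite values, and the pairs were selected for lying on it. The receptor lost counts in nearly all pairs, SiOR1_co the most with -146, -151 and -151, while SiOR13 lies on the other side of 0.

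The expected count of the counterpart was 0 in 34 of the 48 pairs of counterpart and library, and 7 counterparts had 0 expected counts in all 3 libraries. The receptor entry thus held all expected counts of the pair in most cases, while the posterior mean gave some to both. Counterparts were 522 to 1671 bases long. They were within 100 bases of the receptor in 7 pairs, shorter in 10 and longer in 6. SiOR1_co, of 1440 bases, was paired with SINVm1_gene_03620, of 1437 bases. SiOR98, of 1164 bases, was paired with SINVm1_gene_02175, of 1173 bases, and SiOR276, of 1161 bases, with SINVm1_gene_14570, of 1206 bases. Some counterparts had neighbouring ID numbers, since SiOR260, SiOR282 and SiOR274 were paired with SINVm1_gene_14566, SINVm1_gene_14572 and SINVm1_gene_14575, and SiOR437 and SiOR436 with SINVm1_gene_15200 and SINVm1_gene_15201. The 8 receptors with no single counterpart included SiOR441, SiOR196, SiOR442 and the consecutively numbered SiOR96 and SiOR97.

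SINVm1_gene_03620 had 0.06 (P_Bb), 0.01 (P_BB) and 1.16 (M_BB) expected counts but posterior means of 146, 151 and 152. These were 31.6%, 24.8% and 20.2% of the posterior counts of the pair. The counterpart was thus at or near 0 in one form and held part of the counts of the pair in the other. For SiOR98, SINVm1_gene_02175 had 0 expected counts in each library and posterior means of 3.80, 9.59 and 5.81. The SiOR1_co pair summed to 463.37, 607.08 and 754.44 expected counts. That such a sum is the same in both forms follows from how counterparts were sought and is no finding.

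SiOR1_co had normalized expected counts of 551 (P_Bb), 544 (P_BB) and 706 (M_BB), so that M_BB was the highest and the polygyne libraries were close. Its log2 ratio of M_BB to P_BB was 0.38, with a 95% interval of -0.34 to 1.09 from counting and assignment error together. The ratio of P_Bb to M_BB was -0.36 (-0.98 to 0.26), and that of P_Bb to P_BB was 0.02 (-0.80 to 0.83). All 3 intervals of the single entry included 0.

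With both entries of the pair summed, a step added after the data were seen, the normalized counts were 551, 544 and 707. The log2 ratio of M_BB to P_BB was 0.38 (0.22 to 0.53), that of P_Bb to M_BB was -0.36 (-0.53 to -0.19) and that of P_Bb to P_BB was 0.02 (-0.16 to 0.19), where the intervals cover counting error only. They leave out assignment error on the premise that reads move only within the pair, which was not tested. On that premise the pair was higher in the M_BB library than in either polygyne library by more than counting error, and under 2-fold. Counting intervals also excluded 0 in 21.9% of all genes for M_BB against P_BB, 21.2% for P_Bb against M_BB and 9.88% for P_Bb against P_BB. The M_BB to P_BB value was 0.38 to 0.62 over 5 ways of scaling the libraries, and 0.40 above the median of all genes in each of them. A scaling moves a gene and that median nearly alike, so the constant 0.40 follows from the calculation and is no finding.

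Within a library, the summed pair made 18.0 counts per 100 counts of the 136 receptors with few shared reads in P_Bb (16.3 to 19.8, Wilson 95% interval), 18.0 in P_BB (16.5 to 19.6) and 26.6 in M_BB (24.6 to 28.8). The other 40 receptors made 28.6, 27.2 and 29.4 per 100 on the same base. The intervals of the pair did not overlap between M_BB and the polygyne libraries. How many other genes would be as far apart on this base was not counted. The 40 others lay between 27.2 and 29.4 as a sum, in which differences of single receptors can cancel, so nothing is read from that contrast. The base itself was lower in M_BB, where the 136 had a median log2 ratio to P_BB of -0.18 on normalized counts, and the normalized sum of the 40 was 823 in P_BB and 782 in M_BB. In bulk antennae fewer cells of a type and less RNA per cell cannot be told apart. Amplified reads without molecular identifiers are not independent molecules, so all intervals given here cover counting, and where stated assignment, error of single libraries and no spread between colonies.

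**Figure D4:**
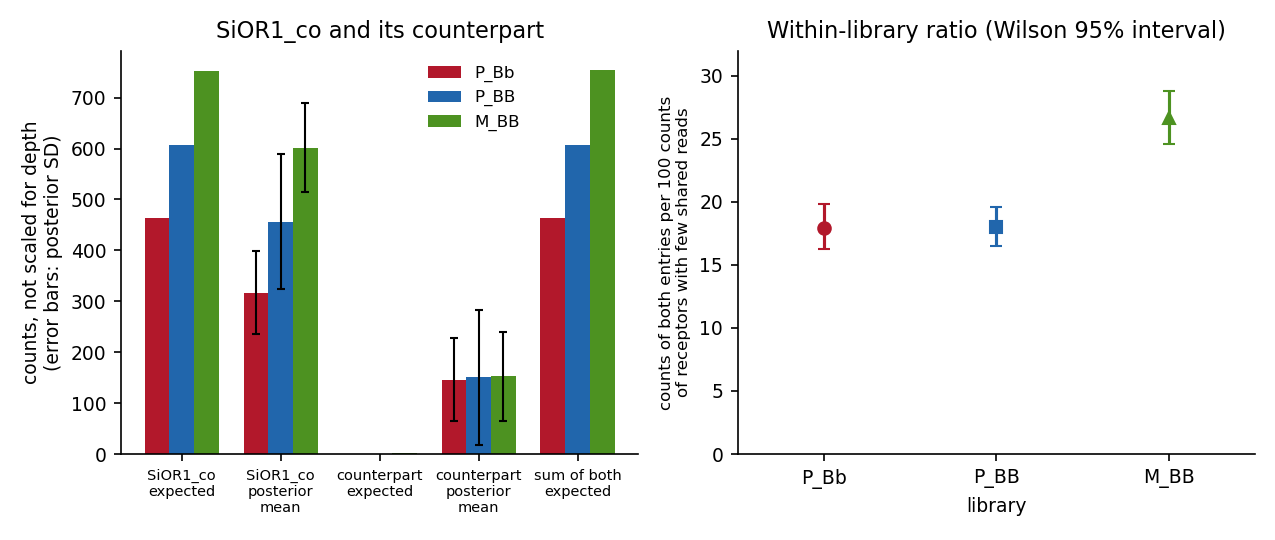
Left, expected count and posterior mean of SiOR1_co and of its counterpart and the sum of their expected counts, in counts not scaled for depth, with error bars of 1 posterior standard deviation. Right, counts of both entries per 100 counts of the 136 receptors with few shared reads, with Wilson 95% intervals: 18.0 in P_Bb and P_BB and 26.6 in M_BB.

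The comparison of P_Bb with P_BB addresses the supergene genotype within polygyne colonies. Of the 41 receptors, 1 was at least 2-fold higher and 2 at least 2-fold lower in P_Bb, beside 2.87% of all 8393 genes over the minimum (1.44% higher and 1.43% lower). That is 7.32% of the 41, and 8 of the 136 with few shared reads (5.88%) were as far apart. The 41 had low counts, with a median mean normalized count of 15.7 beside 50.5 over all genes and 16.1 in the 136, and the part of depth in these shares was not tested. The median log2 ratio of the 41 was 0.08, beside 0.04 in the 136 and 0.01 over all genes.

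SiOR133 had normalized counts of 3.81 (P_Bb), 14.7 (P_BB) and 11.7 (M_BB), and SiOR276 had 5.95, 14.4 and 17.8. In both, P_Bb was the low library and at least 2-fold under each of the others, which held in P_Bb for 2 of the 41, both lower, and for 1.07% of all genes (0.655% lower). The log2 ratio of P_Bb to P_BB was -1.82 in SiOR133 (-3.63 to -0.01, counting and assignment error) and -1.21 in SiOR276 (-2.76 to 0.34). SiOR133 rests on 3.20 expected counts in P_Bb, and only there did it meet the ambiguity criterion (0.531 counting errors). It was the 1 receptor of the 41 whose interval for this pair did not include 0, beside 9.48% of all genes. Against M_BB, the log2 ratio of SiOR276 was -1.51, and -1.51 (-2.88 to -0.13, counting error only) for the sum with its counterpart.

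SiOR35 went the other way, with 11.6 (P_Bb), 4.23 (P_BB) and 15.7 (M_BB). Here P_BB was the low library, at least 2-fold under both others, as in 0.596% of all genes (0.5% lower). The log2 ratio was 1.36 (-0.44 to 3.16) for P_Bb to P_BB and 1.78 (0.11 to 3.44) for M_BB to P_BB. Its P_BB value rests on 4.72 expected counts.

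Social form within the SB/SB genotype is addressed by M_BB and P_BB, which share P_BB with the preceding comparison. At least 2-fold higher in M_BB was 1 of the 41 receptors, SiOR35, and 2 were at least 2-fold lower, beside 3.96% of all genes (2.2% higher and 1.75% lower) and 9 of the 136 receptors with few shared reads (7.32% of the 41 and 6.62% of the 136). The median log2 ratio was 0.04 in the 41, -0.18 in the 136 and -0.02 over all genes. On posterior means the median of the 41 was -0.01, so its sign depends on the form of the count. SiOR35 was also the 1 receptor with an interval that did not include 0, beside 21.5% of all genes.

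The 2 lower receptors were SiOR442, with 27.4 (P_Bb), 25.6 (P_BB) and 10.9 (M_BB), and SiOR62, with 19.0, 16.1 and 6.44. In both the polygyne libraries were close and M_BB lay at least 2-fold under each, which held for 2 of the 41 and 1.37% of all genes (0.858% lower). The log2 ratio of M_BB to P_BB was -1.19 (-2.43 to 0.05) in SiOR442 and -1.26, the lowest of the 41, in SiOR62. For this pair the intervals of both receptors included 0. The log2 ratio of P_Bb to M_BB, which differ in genotype as well, was 1.29 (0.02 to 2.56) in SiOR442 and 1.49 (0.12 to 2.87) in SiOR62. SiOR442 is 1 of the receptors with the highest assignment uncertainty and has no single counterpart, so no sum was available for it.

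P_Bb and M_BB differ in genotype, social form and colonies at once. Of the 41 receptors, 3 were at least 2-fold higher and 4 at least 2-fold lower in P_Bb, beside 5.3% of all genes (2.63% higher and 2.67% lower). Among the 136, 15 were higher and 3 lower, which is 13.2% of them beside 17.1% of the 41. The higher receptors among the 41 were SiOR62, SiOR442 and SiOR55, and their intervals for this pair did not include 0, as in 20.9% of all genes. The lower ones were SiOR276, SiOR133, SiOR427 and SiOR96, and each of their intervals for the single entry included 0.

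SiOR55 is the most abundant of these, with normalized counts of 63.0 (P_Bb), 49.3 (P_BB) and 29.5 (M_BB). The log2 ratio of P_Bb to M_BB was 1.08 (0.36 to 1.80), and 1.01 (0.39 to 1.64, counting error only) for the sum with its counterpart. SiOR427 had 7.14, 8.15 and 15.2, with a log2 ratio of -1.04 (-2.37 to 0.30), and SiOR96 had 12.3, 15.2 and 25.3, with -1.01 (-2.14 to 0.12). In these 2 genes M_BB was the highest library. SiOR427 passed both criteria only through M_BB, since its counts in the other libraries were under 10. Its posterior standard deviation exceeded 0.3 counting errors in M_BB alone (0.360). Its high value in M_BB is therefore partly what the choice set. The median log2 ratio was 0.12 in the 41, 0.16 in the 136 and 0.04 over all genes.

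In all, 8 of the 41 receptors were at least 2-fold apart in some pair of libraries and 33 in none. On posterior means 9 were, among them all of these 8, where the shares of all genes were 2.86% for P_Bb against P_BB, 3.94% for M_BB against P_BB and 5.31% for P_Bb against M_BB. The one added was SiOR188, whose log2 ratio of P_Bb to M_BB was 0.99 on expected counts and 1.02 on posterior means. Between the 2 forms, the log2 ratio of a receptor moved by a median of 0.02 or 0.03 in size, and by at most 0.43, in SiOR98, for P_Bb against P_BB and against M_BB. The highest of the 8 had a mean normalized count of 47.3, so the abundant SiOR1_co, SiOR441, SiOR196 and SiOR13 were under 2-fold in each pair.

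**Figure D5:**
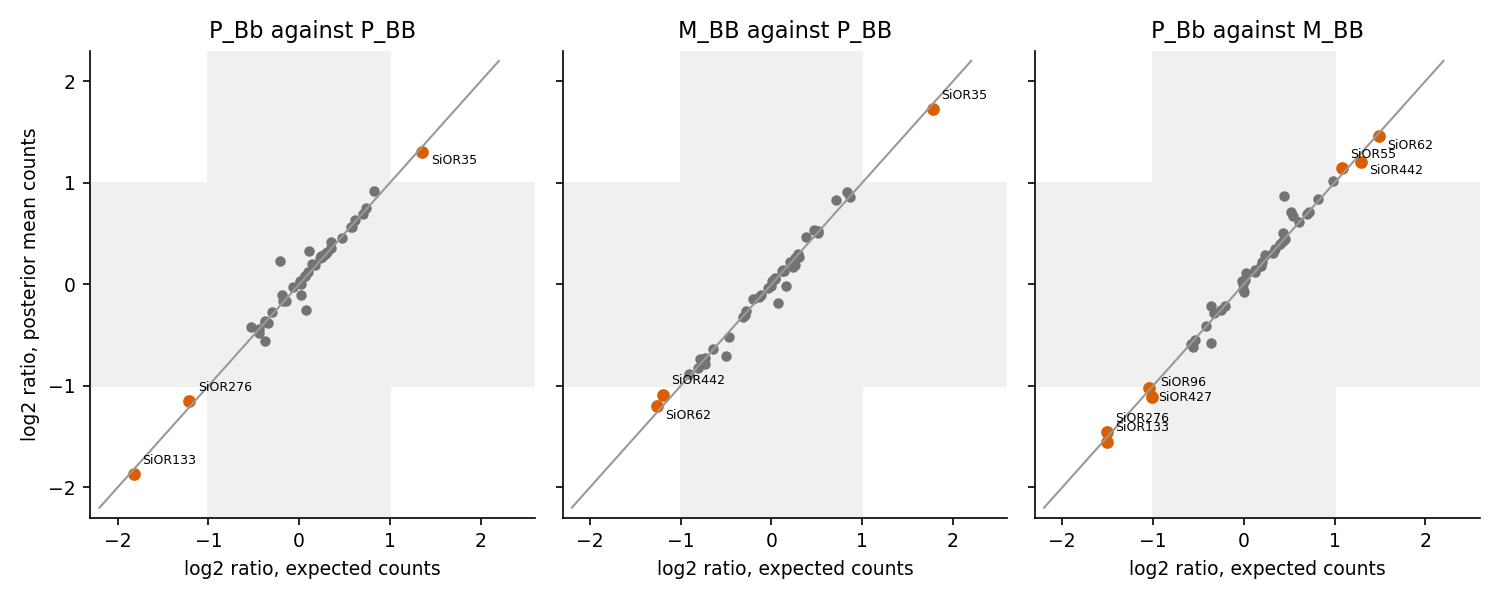
Log2 ratio of each of the 41 receptors from expected counts (horizontal) and posterior mean counts (vertical) in 3 pairs of libraries, with the identity line; grey bands mark under 2-fold and orange points are at least 2-fold on expected counts. Points lie near the line, and the 3, 3 and 7 labelled receptors stay outside the bands on both scales.

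Consecutive ID numbers joined 16 of the 40 receptors with a plain number in 6 runs, beside 86 of the 136 with few shared reads that had a consecutive neighbour of their own kind. What the numbers stand for is not stated in the sources used here. Counts of neighbours depend on how many receptors a set holds, so nothing is read from the contrast of the 2 sets. In SiOR96 to SiOR99 the 4 normalized counts summed to 62.3 (P_Bb), 65.8 (P_BB) and 66.1 (M_BB), although SiOR96 on its own was at least 2-fold higher in M_BB than in P_Bb. The posterior mean of this run was lower than its expected count by 7.37, 15.4 and 10.5 counts. SiOR176 to SiOR179 summed to 88.2, 63.9 and 68.4, and SiOR441 with SiOR442 to 105, 126 and 103. No run sum was 2-fold apart between libraries.

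Receptors that the study names lay outside the 41. SiOR463, listed as XLOC_016888, had normalized counts of 14.3 (P_Bb), 21.5 (P_BB) and 12.1 (M_BB), with a log2 ratio of P_Bb to P_BB of -0.58 (-1.56 to 0.41), of M_BB to P_BB of -0.81 (-1.77 to 0.16) and of P_Bb to M_BB of 0.23 (-0.88 to 1.34), and an assignment uncertainty of at most 0.081 counting errors. The entry SiOR462 had 1, 2.31 and 0 expected counts and SiOR163 had 1, 0 and 0, both too few to compare at this depth. The study also gives SiOR462 an ID of the official gene set, whose counts are not given here. The level of that receptor is therefore not read from the SiOR462 entry alone. No ID in the tables contains Orco, the usual name of the co-receptor.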

How the data were processed

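Antennal polyA RNA of 3 worker classes was amplified with a stranded kit and sequenced by the authors as 1 pooled library per class. The processing notes name Bowtie2, RSEM and Cuffdiff, with no version given in the sources used here. Reads were mapped to a transcript set made of the official gene set, assembled antennal transcripts and receptor sequences. The deposited values per gene were RSEM expected counts, posterior mean counts with their standard deviation over Gibbs samples of read assignment, and TPM. The deposited credibility bounds of TPM, handled as a signal, were used only beside the TPM of SiOR1_co and for the genes above their bound given with it. Per the file names the counting was set without strand, so reads of a gene and an antisense or overlapping partner cannot be told apart. Tables of the authors' own comparisons hold EBSeq posterior probabilities of expression patterns and were not used, nor was the transcript model file, which holds no SiOR IDs.

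Expected counts were divided by size factors from the 75th percentile (0.841, 1.12 and 1.07 for P_Bb, P_BB and M_BB), and log2 ratios used a pseudocount of 0.5, which understates changes of low genes. The comparison took the 8393 genes whose normalized count averaged 10 or more, and differences of at least 2-fold were counted. With 1 library per class no test was run. Intervals of log2 ratios came from the Poisson variance plus, for single entries, the posterior variance of both counts, and a share has a Wilson 95% interval. The code for fold calls was tested on simulated counts, with abundant genes changed by over 2-fold in P_Bb and no shared reads. That test does not cover low counts or ambiguous reads. Counterparts were sought as described with the result. The members, lists and rules were chosen with earlier results of these data known. Receptors were named by rule: the 5 highest counts, the 6 largest rises and 6 largest falls of the posterior mean in counting errors, the 4 largest posterior standard deviations, the receptors at least 2-fold apart, those at the thresholds and those with consecutive IDs, besides receptors the study names. SiOR188, SiOR210, SiOR473 and the counterparts were named after their values were seen. Alternatives changed the size factor (median of ratios, edgeR TMM on rounded expected counts, total counts, TPM), the minimum, the pseudocount, the form of the count and the criterion of ambiguity. R 4.3.3, edgeR 4.0.16, Python 3.11.15, numpy 2.4.6, pandas 2.3.3, scipy 1.17.1 and matplotlib 3.10.9 were used. None of the receptor IDs matched the gene table at hand, so no sequence is shown.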

Additional observations from a re-analysis of the deposited data

How the results depend on the processing

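No paired analysis was possible because each class had 1 library. Of 132 recomputed values, 6 reversed and 35 moved by over 1.5 times (counts) or beyond a rank interval of the median over the 41, which is wide beside medians near 0. The other 91 kept their direction, although medians among them changed in size. With no count minimum there were 129 receptors in place of 41, of which 58 were at least 2-fold apart for P_Bb against P_BB, 45 for M_BB against P_BB and 48 for P_Bb against M_BB, 24, 21 and 11 with P_Bb, P_BB or M_BB apart, and 10 whose 2 forms of the count differed by over 1 counting error. With a minimum of 50 there were 3 receptors, 0 at least 2-fold apart in any pair, 1 with differing forms, and medians of -0.0424 (M_BB against P_BB) and -0.253 (P_Bb against M_BB). With the ambiguity criterion at 1 counting error there were 2 receptors, 0 at least 2-fold apart, and medians of -0.0943 (P_Bb against P_BB) and -0.136 (M_BB against P_BB). With the criterion in each library there were 19 receptors, 4 at least 2-fold apart for P_Bb against M_BB, 1 each with P_Bb or M_BB apart, and a median of 0.397 for P_Bb against M_BB. These settings change which receptors are counted. With a pseudocount of 5, 1, 1 and 3 receptors were at least 2-fold apart and 0 had 1 library apart. Posterior mean counts gave a median of -0.0132 for M_BB against P_BB. Scaling to total counts gave medians of 0.271 (M_BB against P_BB) and -0.0644 (P_Bb against M_BB), and moved the median of all genes from -0.02 to 0.22 and from 0.04 to -0.15. TPM gave a median of 0.182 for M_BB against P_BB. Relative to all genes, the medians of the 41 were 0.06 and 0.08 on the main scale and 0.05 and 0.09 on total counts. A change of scaling moves both medians nearly alike, so this closeness follows from the calculation and is no finding. The next alternatives were added after the data were seen. Without SiOR1_co, 1 receptor had forms differing by over 1 counting error. Summing each receptor with its counterpart left each count of receptors as it was and gave a median of 0.00479 for M_BB against P_BB. In 7 of the 8 receptors at least 2-fold apart, the lowest library held 3.20 to 11.6 expected counts, where counting error limits what can be told.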
